A study of Mus musculus with 12 samples.

Results

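The genes described here are those of the transcription factor KLF2 and its relative KLF3, and of the receptors and integrins by which T-cells leave the thymus and find lymphoid organs. They were chosen by gene symbol, as *Klf2*, *Klf3*, *S1pr1*, *Ccr7*, *Ccr9*, *Cxcr4*, *Itgb7*, *Itga4* and *Itgal*. All 9 had at least 1 probe set, of 8252 genes with a probe set of a single symbol on the array. They were read by 14 probe sets, since *Klf3*, *S1pr1*, *Itgb7* and *Itga4* had more than 1. All 9 genes passed the signal filter in 13 of the 14 probe sets.

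Total thymocytes were taken from 6 female mice, 6 to 7 weeks old, that were F1 offspring of C57Bl/6 and 129Sv. Of these, 2 were *Med23+/+;Lck-Cre*, with intact *Med23* and the Cre transgene (*Lck-Cre* below), 2 were *Med23 flox/flox*, with *LoxP* sites around exons of *Med23* and no Cre, and 2 were *Med23 flox/flox;Lck-Cre* (MED23 null). MED23 null mice thus share the Cre transgene with the first controls and the floxed alleles with the second. Cre is driven here by the promoter of *Lck*, a kinase gene of the T lineage, from the DN4 stage on, so that other cells of the thymus keep *Med23*. After 4 h of rest, the cells of a mouse were divided between 3 h of mock treatment, with no stimulus, and 3 h on plates coated with antibody to CD3 (αCD3), which engages the T-cell receptor complex. Each mouse gave 1 array per treatment, 12 in all.

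KLF2 is a zinc finger factor that comes up as thymocytes mature. It activates *S1pr1*, the receptor for sphingosine 1-phosphate that draws mature thymocytes into the blood, and T-cell receptor signals switch *Klf2* off. Mature T-cells follow CCR7 and the integrins into lymph nodes, while CXCR4 and CCR9 guide thymocytes within the thymus and, for CCR9 with integrin α4β7, T-cells to the gut. KLF3 is a repressor that binds the same CACCC-type sites as its relatives.

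The promoter of *Klf2* is shown because the study asked about MEF2, a family of MADS box factors, as an activator of this gene. The window comes from RefSeq (GRCm38.p6, chr8:72318812-72319111, plus strand, running from 250 bases before the annotated start to 50 after it), and capitals mark the only match to the MEF2 pattern CTANNNNTAG.

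Klf2 promoter: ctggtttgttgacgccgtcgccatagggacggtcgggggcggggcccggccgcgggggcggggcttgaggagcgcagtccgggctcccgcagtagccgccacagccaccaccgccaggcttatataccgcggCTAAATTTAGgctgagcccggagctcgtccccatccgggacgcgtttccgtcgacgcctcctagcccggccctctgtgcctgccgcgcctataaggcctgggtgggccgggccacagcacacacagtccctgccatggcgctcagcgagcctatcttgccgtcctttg

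This match lies 118 to 109 bases before the start. The pattern, searched on both strands, was found in 3.69% of 32851 promoter windows of this length, and in 1 of the 6 windows at hand for the genes described (*Klf2*, *Klf3*, *Ccr9*, *Cxcr4*, *Itgb7* and *Itga4*). The FOXO core GTAAACA was in none of the 6 and in 3.65% of all windows, while the KLF-type box CACCC was in all 6 and in 57.5% of all. Windows for *S1pr1*, *Ccr7* and *Itgal* were not analysed here. The arrays measured no binding, so these matches are a description of letters only.

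All values are MAS5 signals in arbitrary units on a linear scale, and signals below 100 are pointed out because their ratios cannot be read exactly. Log2 values are differences of log2(signal + 50), which understates changes of dim probe sets, with p values from limma adjusted over all 9478 probe sets tested. One array, that of *Med23 flox/flox* replicate 1 after αCD3, stood apart, with a lower quartile of signals of 85.2 against at most 58.2 on the other 11 arrays. On the αCD3 arrays of MED23 null mice the actin 3' to 5' ratio, a sign of RNA quality, was 1.61 and 1.90, against 1.35 to 1.41 in controls. The *Med23* probe set read 288 to 424 in mock-treated controls and 207 and 268 in MED23 null cells, and 310 to 489 against 239 and 252 after αCD3. It was lower in both null mice each time, without passing the test, and whether its probes fall in the deleted exons is not given in the sources used here. All 8 markers of DP thymocytes, the main cells of the thymus, were at 100 or more on every array. As these are bulk samples, fewer cells of a type and less RNA per cell cannot be told apart.

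*Klf2* had a clear mock signal in 1 genotype, the *Lck-Cre* controls. Its mock signals were 415 and 343 in the 2 *Lck-Cre* mice, 47.7 and 64.4 in the 2 *Med23 flox/flox* mice, and 36.8 and 44.2 in the 2 MED23 null mice. The 2 *Lck-Cre* arrays thus lay far above the other 4, all of which were below 100. Group means were 379 ± 50.7, 56.0 ± 11.8 and 40.5 ± 5.23 (SD, n = 2 each), so that the *Lck-Cre* mean was 9.35 times that of MED23 null cells and 6.76 times that of *Med23 flox/flox* cells, ratios whose exact size cannot be read. The difference of MED23 null from *Lck-Cre* was -2.24 (standard error 0.19, adjusted p = 0.279), and that of *Lck-Cre* from *Med23 flox/flox* was 2.02 (standard error 0.19, adjusted p = 0.307). By p value *Klf2* ranked 1 of 9478 in both, but it had passed the signal filter through the *Lck-Cre* mock mean alone, so it had to differ there. Neither difference passed the test with each treatment fitted alone, whereas a joint fit of the 12 arrays with the mouse as a random block gave adjusted p = 0.00542 and 0.0134, and *Klf2* was then the 1 probe set called in each.

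Against the other control genotype all *Klf2* signals were dim. MED23 null and *Med23 flox/flox* cells differed by -0.23 (standard error 0.19, adjusted p = 0.82), with both null signals below both floxed ones and all 4 below 100. The comparison of MED23 null with all 4 controls (-1.23, standard error 0.69, adjusted p = 0.738) therefore averages a large difference with a small one among dim signals. The *Lck-Cre* mice carry no floxed allele, and the *Med23 flox/flox* mice carry no Cre, so by their labels the 4 mice with low *Klf2* signal were those with floxed alleles. No probe set used here reads the floxed alleles, so these labels of the *Med23 flox/flox* mice were not checked.

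*Klf2* fell to the level of the other genotypes after αCD3 in the *Lck-Cre* mice. Its αCD3 signals were 38.3 and 34.2 in *Lck-Cre*, 83.1 and 88.1 in *Med23 flox/flox* and 43.5 and 28.9 in MED23 null cells, all below 100. Ratios of αCD3 to mock were 0.0924 and 0.0997 in *Lck-Cre*, 1.74 and 1.37 in *Med23 flox/flox*, and 1.18 and 0.654 in MED23 null mice. Both *Lck-Cre* mice went down and both floxed mice up, the latter among dim signals. The induction of the 2 control genotypes differed by -2.67 (standard error 0.26, adjusted p = 0.553), again rank 1 of 9478, for a probe set that its *Lck-Cre* mock mean alone had brought past the filter. That difference was not called within mice, and was called when the pairing by mouse was not used (adjusted p = 0.0226). Over the 4 controls the change was -0.98 (standard error 0.53, adjusted p = 0.704), and -2.31 with the *Lck-Cre* mice as the only controls (adjusted p = 0.13).

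**Figure D1:**
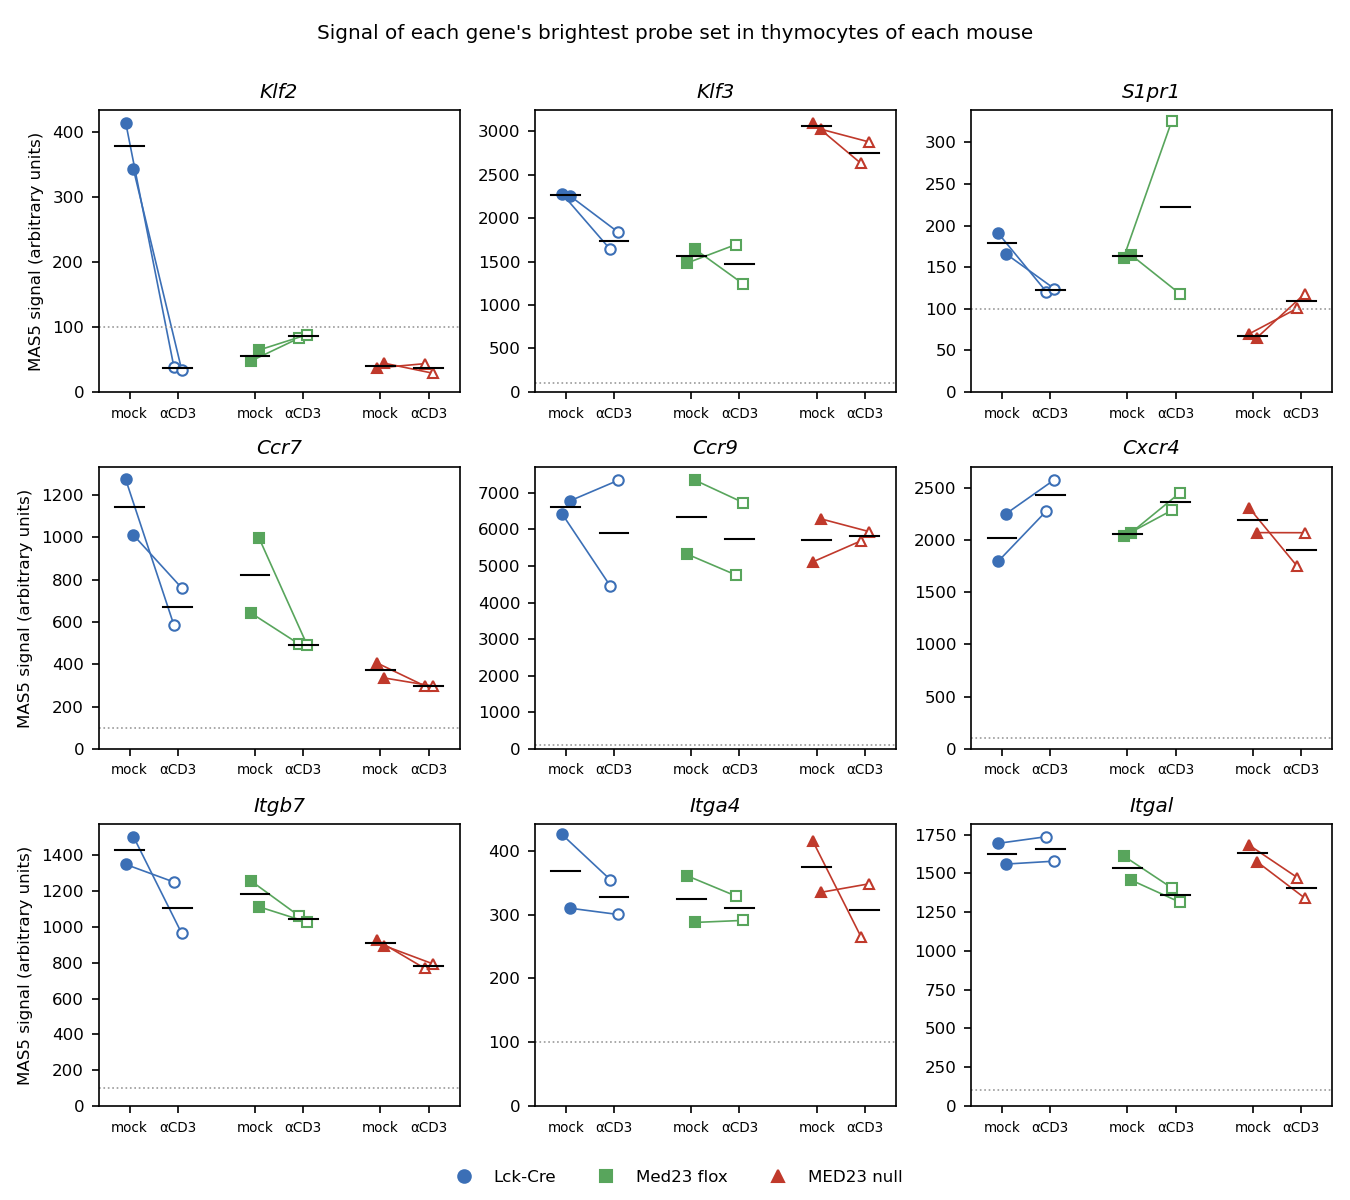
MAS5 signal (linear vertical axes from 0) of the brightest probe set of each of the 9 genes, with filled points for mock and open points for αCD3, a line joining the arrays of 1 mouse, black bars for means of 2 mice, and a dotted line at 100. *Klf2* is high on the 2 *Lck-Cre* mock arrays alone (343 and 415), *Ccr7* and *S1pr1* are low in mock-treated MED23 null cells, and *Klf3* is high there.

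*Klf3* was higher in mock-treated MED23 null cells than in either control genotype by its brighter probe set. This probe set (100011_at) read 2282 and 2258 in mock-treated *Lck-Cre*, 1484 and 1641 in *Med23 flox/flox* and 3093 and 3023 in MED23 null cells. Both null arrays were above all 4 controls, and both *Lck-Cre* arrays above both floxed ones. MED23 null cells had 1.60 times the mean of all controls (log2 0.69, standard error 0.22, adjusted p = 0.552) and 1.96 times that of *Med23 flox/flox* cells (0.95, standard error 0.17, adjusted p = 0.392). Against *Lck-Cre* the ratio was 1.35.

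After αCD3 the same probe set read 1641 and 1840 in *Lck-Cre*, 1694 and 1241 in *Med23 flox/flox* and 2628 and 2877 in MED23 null cells, again without overlap (0.77, standard error 0.21, adjusted p = 0.605). The null mean was 1.72 times that of controls. The second probe set (100010_at) was weaker in this, with mock signals of 1449 and 1221 in *Lck-Cre*, 877 and 1004 in *Med23 flox/flox* and 1433 and 1414 in MED23 null cells. These null signals lay above the floxed ones (0.58, standard error 0.19, adjusted p = 0.57) but within the range of *Lck-Cre*. After αCD3 both probe sets were lower in 3 of 4 control and in 2 of 2 null mice, the exception being *Med23 flox/flox* replicate 1, whose αCD3 array stood apart.

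*S1pr1*, the egress receptor, was lower in mock-treated MED23 null cells than in either control genotype. Probe set 161788_f_at read 191 and 166 in *Lck-Cre*, 161 and 164 in *Med23 flox/flox* and 69.7 and 65.0 in MED23 null cells, where both signals were below 100. The 4 controls lay close together and both null mice far below them. Control cells had 2.53 times the null mean (log2 -0.91, standard error 0.14, adjusted p = 0.219, rank 17 of 9478). The difference was alike in size against *Lck-Cre* (-0.96, standard error 0.17, adjusted p = 0.318) and *Med23 flox/flox* (-0.86, standard error 0.17, adjusted p = 0.393), and the 2 control genotypes differed by 0.10 (standard error 0.17).

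After αCD3 the *S1pr1* signals of the genotypes came nearer to each other, without a difference in induction that passed the test. They were 120 and 124 in *Lck-Cre*, 326 and 118 in *Med23 flox/flox* and 100 and 118 in MED23 null cells, with the highest on the array that stood apart. Within mice the ratio to mock was 0.631 and 0.748 in *Lck-Cre* and 0.719 in *Med23 flox/flox* replicate 2, but 2.02 in replicate 1, and 1.44 and 1.82 in the MED23 null mice. The difference in induction was 0.52 (standard error 0.40, adjusted p = 1.00). With *Med23 flox/flox* replicate 1 left out, a choice made after seeing the data, both null mice lay above all remaining controls in this ratio. So did 9.89% of all probe sets, and both null mock signals behind these ratios were below 100. The other *S1pr1* probe set (101953_at) read 5.3 to 38.5 on all 12 arrays and was not tested.

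*Ccr7*, the chemokine receptor of lymph node entry and of migration into the thymic medulla, was lower in MED23 null cells with and without stimulus. Its mock signals were 1273 and 1011 in *Lck-Cre*, 642 and 998 in *Med23 flox/flox* and 407 and 335 in MED23 null cells. All controls lay above both null mice, and both *Lck-Cre* above both floxed mice. Control cells had 2.64 times the null mean, 3.08 times with *Lck-Cre* (log2 -1.50, standard error 0.27, adjusted p = 0.318) and 2.21 times with *Med23 flox/flox* as the control (-1.02, standard error 0.27, adjusted p = 0.473).

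After αCD3 *Ccr7* read 585 and 761 in *Lck-Cre*, 495 and 491 in *Med23 flox/flox* and 298 and 297 in MED23 null cells. The groups still did not overlap, with controls at 1.96 times the null mean (-0.84, standard error 0.22, adjusted p = 0.597). The difference was -1.05 from *Lck-Cre* (standard error 0.22, adjusted p = 0.612) and -0.64 from *Med23 flox/flox* (standard error 0.22, adjusted p = 0.6). Ratios to mock were 0.459 and 0.753 in *Lck-Cre*, 0.771 and 0.492 in *Med23 flox/flox* and 0.731 and 0.887 in MED23 null mice. *Ccr7* was thus lower after αCD3 in 6 of 6 mice (-0.69 in controls, standard error 0.17, adjusted p = 0.295, and -0.27 in null mice, standard error 0.24), and the ratios of null and control mice overlapped. Its induction differed by 0.41 between them (standard error 0.29, adjusted p = 1.00).

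The other chemokine receptors overlapped between MED23 null and all controls in mock-treated cells. *Ccr9*, whose ligand CCL25 is made by thymic epithelium and the small intestine, read 4459 to 7344 over all 12 arrays, with mock means of 6606 ± 243 in *Lck-Cre*, 6333 ± 1430 in *Med23 flox/flox* and 5702 ± 834 in MED23 null cells (SD, n = 2 each). Null signals of 5113 and 6292 lay below the *Lck-Cre* ones of 6434 and 6777 but overlapped with the floxed ones, and after αCD3 all genotypes overlapped. *Cxcr4*, the receptor of CXCL12 that helps early thymocytes at β-selection, read 1794 and 2248 in mock-treated *Lck-Cre*, 2034 and 2069 in *Med23 flox/flox* and 2306 and 2069 in MED23 null cells.

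*Cxcr4* was the gene whose change after αCD3 did not overlap between null and control mice. Ratios to mock were 1.27 and 1.14 in *Lck-Cre*, 1.12 and 1.18 in *Med23 flox/flox* and 0.757 and 1.00 in MED23 null mice. The signal was higher after αCD3 in 4 of 4 controls and in 0 of 2 null mice, in 1 of which it stayed at a ratio of 1.00. The difference in induction was -0.43 (standard error 0.21, adjusted p = 0.974, rank 808 of 9478). Of all probe sets, 7.42% had null changes wholly below those of controls, so 1 of 13 member probe sets is near that share. After αCD3 the null signals of 1746 and 2068 lay below all controls, which read 2275 to 2573, as 8.61% of all probe sets did. They differed from controls by -0.32 (standard error 0.17, adjusted p = 0.9).

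Among the integrins, *Itgb7* was lower in mock-treated MED23 null cells, whereas *Itgal* overlapped between the genotypes in mock-treated cells. *Itgb7*, the β7 chain that pairs with α4 for entry into gut tissue, read 1350 and 1505 in mock-treated *Lck-Cre*, 1257 and 1113 in *Med23 flox/flox* and 928 and 895 in MED23 null cells (probe set 100906_at). All null signals lay below all controls, at 0.698 of the control mean, and *Lck-Cre* signals were above the floxed ones. The difference was -0.62 from *Lck-Cre* (standard error 0.18, adjusted p = 0.533) and -0.36 from *Med23 flox/flox*. After αCD3 it read 965 to 1251 in controls against 768 and 794, and it was lower than in mock in 6 of 6 mice, at ratios of 0.641 to 0.927.

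A second, dim *Itgb7* probe set (162193_f_at) gave the opposite order. Its mock signals were 35.9 and 24.1 in *Lck-Cre*, 44.1 and 121 in *Med23 flox/flox* and 171 and 128 in MED23 null cells (null minus control 0.98, standard error 0.34, adjusted p = 0.599). It was below 100 on 7 of 12 arrays and passed the filter through the null mock mean alone. That null mean therefore had to be its highest, so its sign in mock-treated cells is no separate result. By the bright probe set, *Itgb7* was lower in both null mice under each treatment.

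*Itga4*, the α4 chain, had 3 probe sets that did not run together. The brightest (95292_at) read 426 and 310 in mock-treated *Lck-Cre*, 361 and 288 in *Med23 flox/flox* and 416 and 335 in MED23 null cells, with all groups overlapping. Probe set 102655_at read 308 and 343 in *Lck-Cre*, 195 and 256 in *Med23 flox/flox* and 222 and 230 in MED23 null cells. The dim 102656_at read 33.2 to 89.6 in controls and 122 and 123 in MED23 null cells (log2 0.57, standard error 0.24, adjusted p = 0.67), and passed the filter through that null mean alone. *Itgal*, the αL chain of the integrin LFA-1, read 1560 and 1694 in *Lck-Cre*, 1456 and 1613 in *Med23 flox/flox* and 1577 and 1683 in MED23 null mock cells, the narrowest span of the probe sets (1.32-fold over all 12 arrays). After αCD3 it read 1737 and 1579 in *Lck-Cre*, 1407 and 1315 in *Med23 flox/flox* and 1473 and 1340 in MED23 null cells, both *Lck-Cre* signals being above the other 4 (*Lck-Cre* minus *Med23 flox/flox* 0.27, standard error 0.20, adjusted p = 0.852). Its ratio to mock was 1.01 and 1.03 in *Lck-Cre* and 0.850 to 0.903 in the other 4 mice.

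**Figure D2:**
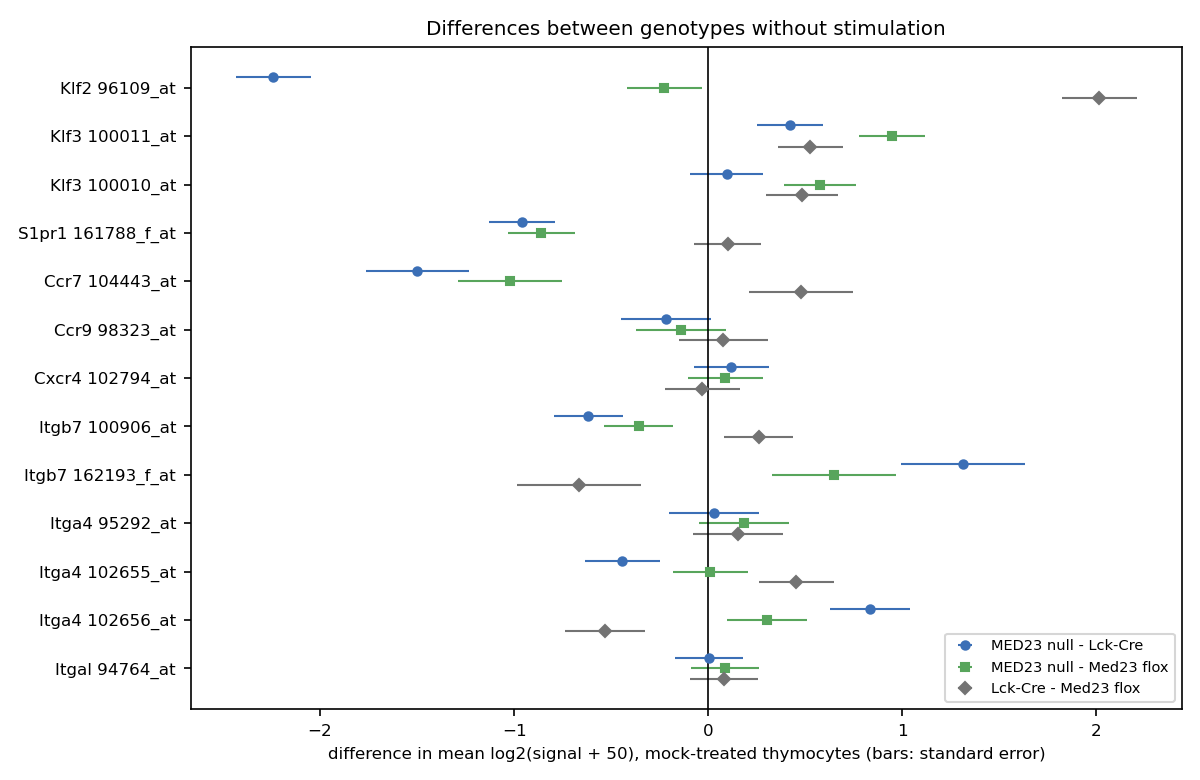
Differences in mean log2(signal + 50) between genotypes in mock-treated cells for the 13 probe sets tested, with bars of 1 standard error and 2 mice per genotype. For *Klf2* the differences of MED23 null from *Lck-Cre* (-2.24) and of *Lck-Cre* from *Med23 flox/flox* (2.02) rest on the same 2 *Lck-Cre* arrays. Their mean alone brought *Klf2* past the signal filter. *S1pr1* and *Ccr7* lie below 0 for MED23 null cells against both controls.

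No probe set of these genes passed the test in any of the 12 comparisons, in which 14 of all 9478 probe sets were called for induction in controls (0.148%), 3 for induction in MED23 null mice (0.0317%) and 0 (0%) in each of the other 10. Of the 13 member probe sets, an unadjusted p under 0.05 in limma was found between MED23 null and control cells for 5 after mock treatment (701 of all 9478) and for 3 after αCD3 (584). In mock cells it was found for 7 against *Lck-Cre* (692), 4 against *Med23 flox/flox* (696) and 4 between the control genotypes (535), and after αCD3 for 2 (458), 3 (732) and 1 (562). For induction it was found for 1 in controls (737), 0 in null mice (508), 0 for their difference (486) and 2 for the difference between control genotypes (574). The 13 include 3 probe sets that passed the filter through 1 mock condition, whose mean had to be highest there. These were *Klf2* through *Lck-Cre*, and 162193_f_at of *Itgb7* and 102656_at of *Itga4* through MED23 null cells. The mock counts compare these same groups, so they cannot be read as an excess over all probe sets. Counts of unadjusted p without them are not given here. *Klf3*, *Itgb7* and *Itga4* count with more than 1 probe set each.

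In mock-treated cells, both null arrays lay below all 4 controls for 4 probe sets (*Klf2*, *S1pr1*, *Ccr7* and *Itgb7*) and above them for 3 (*Klf3*, *Itgb7* and *Itga4*), where 8.44% and 9.27% of all probe sets did so. Leaving out the 3 probe sets that passed the filter through 1 condition, 3 of 10 were lower and 1 higher. The median log2 difference was 0.04 for the 13 and 0.02 for all probe sets tested, with members on both sides of 0. Against *Lck-Cre* alone 6 were wholly lower and 3 wholly higher (18.6% and 19.8% of all probe sets), and against *Med23 flox/flox* alone 4 and 4 (17.8% and 19.6%). Without the same 3 probe sets these were 5 and 1 of 10, and 3 and 2 of 10. The *Lck-Cre* arrays were wholly above the floxed ones for 7 probe sets and wholly below for 2, where 18% and 16.6% of all probe sets were, and for 6 and 0 of the 10.

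After αCD3, 4 of the 13 lay wholly below controls in MED23 null cells (*S1pr1*, whose highest null and lowest control signal were equal at 118 to 3 digits, *Ccr7*, *Cxcr4* and *Itgb7*) and 1 above (*Klf3*), against 8.61% and 6.9% of all probe sets. For the change within mice, 2 probe sets (*Ccr7* and *Itgb7*) were lower after αCD3 in 4 of 4 controls and 1 (*Cxcr4*) higher, where 8.68% and 9.16% of all were, and 5 were lower with *Med23 flox/flox* replicate 1 left out, where 16.1% of all were. In both MED23 null mice 7 were lower, where 26.3% of all were. The change in null mice lay wholly below that in controls for 1 probe set (*Cxcr4*) and wholly above for 0, against 7.42% and 6.06% of all. Without *Med23 flox/flox* replicate 1 these counts were 2 and 2, against 11.3% and 9.89% of all.

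**Figure D3:**
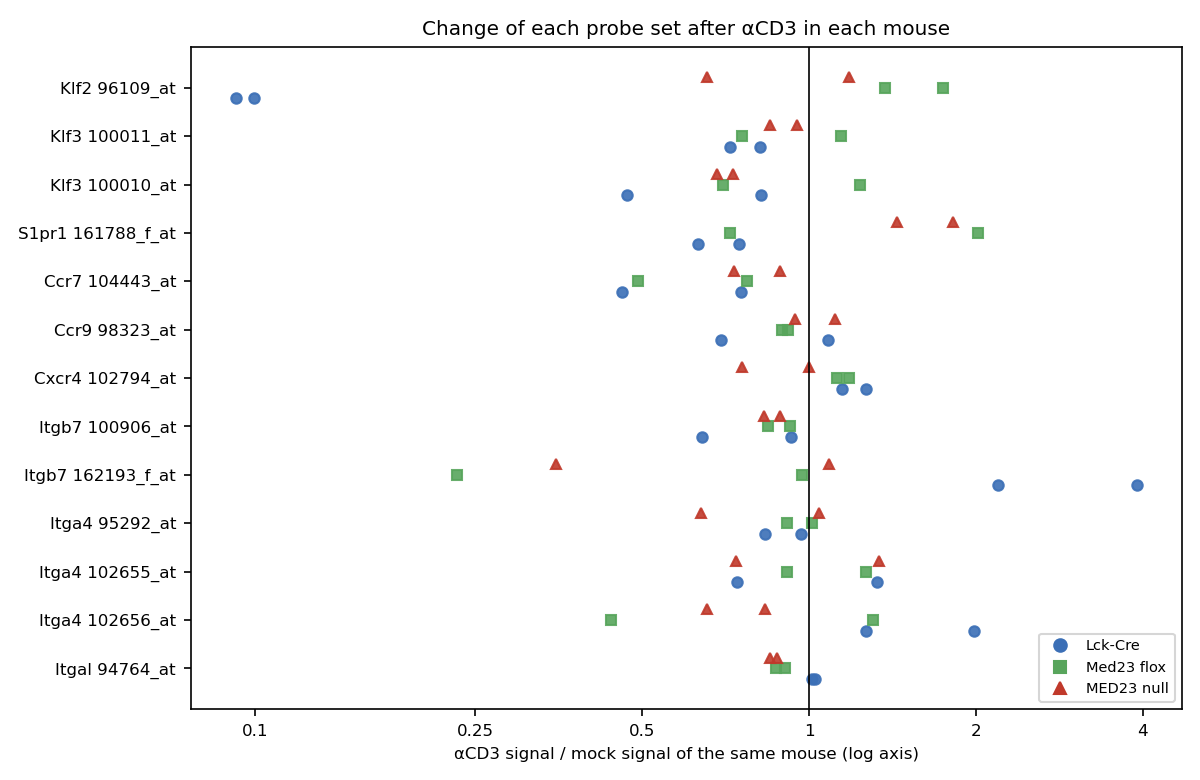
Ratio of αCD3 to mock signal in each mouse (log axis, 1 point per mouse, 13 probe sets), with the line at 1 for no change. *Klf2* lies near 0.1 in the 2 *Lck-Cre* mice and between 0.654 and 1.74 in the other 4, *Ccr7* lies below 1 in 6 of 6 mice, and *Cxcr4* lies above 1 in the 4 controls.

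Other genes of the same pathways were read from lists, and in none did a gene pass the test between genotypes. For the counts below, 8.44% of all probe sets lay wholly lower and 9.27% wholly higher in mock-treated null cells than in controls. Of 7 further KLF family genes tested, 0 were called and 0 lay wholly apart in mock-treated MED23 null cells (median log2 -0.06). *Klf6*, a factor of many tissues, read 1244, 973, 1028 and 1146 in mock-treated controls and 951 and 1035 in MED23 null cells, and *Klf10*, a TGF-β-inducible repressor, was higher after αCD3 in 4 of 4 controls (0.47, standard error 0.15, adjusted p = 0.516). Among 14 genes of the KLF2 and FOXO1 axis and of egress, 3 lay wholly lower (*Cd52*, *Coro1a* and *Arhgef1*) and 1 wholly higher (*S1pr2*, 0.22) in null mock cells (median -0.03). *Cd52*, which the study names as a KLF2 target, differed most in this list (-1.24, standard error 0.16, adjusted p = 0.174, and -1.05 after αCD3, adjusted p = 0.493). Smaller differences were those of *Coro1a*, an actin regulator needed for egress, which read 4924 to 5712 in controls and 3806 and 4634 in null cells (-0.35, standard error 0.16, adjusted p = 0.68), and *Arhgef1*, a signalling protein of lymphocyte migration (-0.40, standard error 0.16, adjusted p = 0.654). *Il7r*, a FOXO1 target, overlapped between the groups (-0.36, adjusted p = 0.797).

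Of 8 MEF2 and ETS factor genes, 0 lay wholly lower and 2 wholly higher in mock-treated MED23 null cells (median 0.14), with *Elk3* at 0.42 (adjusted p = 0.665) and *Mef2b* at 0.15. The shares over all probe sets, 8.44% and 9.27%, hold for this list and those that follow. *Mef2d* read 7104 to 9747 in controls and 8712 and 9418 in null cells. Of 9 other chemokine receptors, 2 lay wholly lower (*Ccr1* and *Ccr2*, with mock signals of at most 194), and of 10 other integrins and selectin ligands 4 lay wholly lower (*Cd44*, *Itgae*, *Itga6* and *Spn*) and 1 higher (*Selplg*). *Itga6*, the laminin receptor chain, read 307 to 402 in controls and 266 and 266 in null cells. Of 7 integrin activation genes 2 lay wholly lower, with *Rassf5*, a RAP1 effector, at -0.27 (adjusted p = 0.722). Of 7 ligand genes 1 lay wholly lower (*Icam2*, a ligand of LFA-1, -0.47, adjusted p = 0.641) and 1 higher (*Cxcl12*, at or below 123 in all mock arrays). The stimulus itself was seen in 5 of 5 genes of the T-cell receptor response, which were higher in all 6 mice, with *Nr4a1* at 3.41 in controls (adjusted p = 0.000419). Their rise was smaller on average in MED23 null mice for 5 of 5, and wholly so for 4, where 7.42% of all probe sets did so. The median difference in induction was -0.69, against -0.02 for all probe sets, and 0 of the 5 differences passed the test. From these same arrays the study had already named *Egr1*, *Egr2* and *Cd5* as less induced in null cells. The smaller rise in this list is therefore no separate support, and most of all probe sets were not called as induced.

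Probe sets with the pattern most like that of *Klf2* over the 12 arrays were those of *Rab3d* (Pearson r = 0.951), *Kat2a* (0.941), *Srgap2* (0.885), *Slc25a28* (0.835) and *Sc5d* (0.823). *Kat2a*, which encodes the acetyltransferase GCN5, read 196 and 300 in mock-treated *Lck-Cre* and 59.3 to 97.6 on the other arrays. *Rab3d*, a GTPase gene, read 183 and 217 there and 47.4 to 87.3 elsewhere. All 5 were highest on the 2 *Lck-Cre* mock arrays, which follows from their choice by likeness to *Klf2*. Spearman's measure kept 0 of these probe sets and mock arrays alone kept 1. Most like *Ccr7* were *Slfn1* (0.966), *Tdrp* (0.947), *Lef1* (0.938), *Rasa3* (0.935) and *Tk2* (0.925). *Slfn1*, a gene of quiescent T-cells, read 828 to 1232 in mock-treated controls and 425 and 436 in null cells, and *Lef1*, a factor of the WNT pathway, 1522 to 2104 against 1183 and 1368. Most like *S1pr1* were *Fam50b* (0.909), *Rps27l* (0.894), *Fam216a* (0.867), *Dynlt3* (0.865) and *Col13a1* (0.863), each of which was highest for *Med23 flox/flox* replicate 1 after αCD3. That is the array that stood apart, on which *S1pr1* itself was highest. Arrays of 1 mouse share a source in these correlations, which are a description.

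Markers of cell types moved with genotype as well. The summed mock signal of 10 genes of mature single positive thymocytes, the cells in which *Klf2*, *S1pr1* and *Ccr7* are mainly expressed, was 31434 and 33369 in *Lck-Cre*, 25460 and 27534 in *Med23 flox/flox* and 21808 and 25092 in MED23 null cells. The order of the genotypes was that of *Ccr7* and *Klf2*, with 9 or 10 of the 10 genes at 100 or more on each array. In null cells 4 of the 10 lay wholly lower, namely *Cd52* (-1.24), *Slfn1* (-1.14), *Gimap4* (-0.98) and *Tnfrsf4* (-0.78), where 8.44% of all probe sets did so. The other genes overlapped, and *H2-K1* (0.05) and *Gata3* (0.22) were above 0. *Cd52* is also in the KLF2 list above and *Slfn1* was the gene most like *Ccr7*, so this sum is not independent of the genes described. The 10 genes were all higher in *Lck-Cre* than in floxed cells on average, and 6 of them wholly so, as were 18% of all probe sets. DP markers (8 genes) summed to 101341 to 105253 in mock-treated controls and 82066 and 87420 in null cells, and markers of NK and cytotoxic cells (5 genes, 2 to 4 at 100 or more) to 1473 to 2027 against 3877 and 5503. The DP genes did not all run with their sum, since 4 lay wholly lower (*Cd8b1*, *Rag1*, *Rag2* and *Dntt*) and *Cd4* wholly higher (0.29), with *Cd1d1* at 0.13. Of all probe sets, 8.44% lay wholly lower and 9.27% wholly higher. Most of the NK sum was *Gzma* (1116 to 1382 against 4825 and 3352), while *Gzmb*, at 96.0 to 116 in controls, read 32.5 and 91.1. B cell markers (7 genes) summed to 6548 to 7137 in controls against 7878 and 8136, and erythroid ones (4 genes) to 6496 to 16946 against 15019 and 37374. Endothelial cells, which also express *Klf2* and *S1pr1*, had 2 to 4 of 8 markers at 100 or more on mock arrays, with sums of 1820 to 3062 in controls against 2119 and 2420. After αCD3 the mature single positive sums were 30530 and 31969 in *Lck-Cre*, 24424 and 29787 in *Med23 flox/flox* and 23957 and 25608 in MED23 null cells. Null and floxed mice thus overlapped there. By flow cytometry, the study found normal proportions of the main thymocyte populations in MED23 null thymuses. The part of the cell type markers in the values of *Klf2*, *S1pr1*, *Ccr7* and *Itgb7* was not tested.

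**Figure D4:**
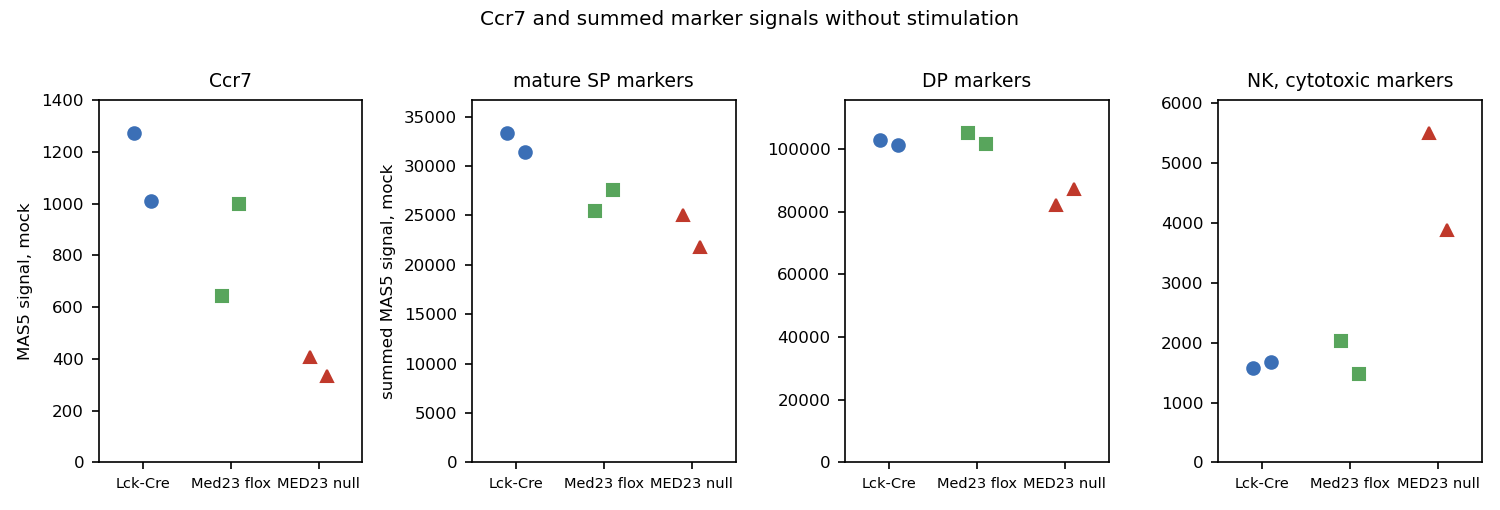
*Ccr7* signal and summed signals of markers of mature single positive (SP), double positive (DP) and NK or cytotoxic cells in mock-treated cells, 1 point per mouse on linear axes from 0. Mature SP markers run from 33369 in *Lck-Cre* down to 21808 in MED23 null cells in the same order of genotypes as *Ccr7*, the sum of DP markers is lower and that of NK markers, mostly *Gzma*, higher in the 2 null mice.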

How the data were processed

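RNA of total thymocytes from 6 mice was read on Affymetrix mouse expression arrays, 1 per mouse and treatment. The values are intensities on a linear scale that the authors had deposited as MAS5 signals, of a version not given in the sources used here. Arrays were scaled to the mock array of *Lck-Cre* replicate 1 by a mean trimmed by 2% at each end (factors within 0.00603% of 1). The arrays hold 12488 probe sets, and 9478 of them, after removal of 66 control probe sets, had a mean of at least 100 in at least 1 of 6 conditions. Detection calls were not used here. Since a probe set may pass through 1 condition, the text names those that did.

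Signals were taken as log2(signal + 50) and fitted with limma 3.58.1 in R 4.3.3 (lmFit and eBayes), with Benjamini-Hochberg adjustment and a threshold of 0.05. Mock and αCD3 arrays were paired by the mouse identifiers of the labels, so induction was the difference within each mouse (correlations of deviations 0.0940, 0.149 and 0.0610 in the 3 genotypes). MED23 null mice were compared with all 4 controls in 2-group fits and with each control genotype in a 3-genotype fit with 3 residual degrees of freedom. In all, 12 comparisons were made, and many share arrays. With 2 mice per genotype the number of arrays limits the precision.

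Gene symbols come from the platform annotation (10855 probe sets with 1 symbol, 396 with several, 1237 with none). All member probe sets are described, with statistics for those with a group mean of at least 100, a log2 difference of at least 0.5 and no overlap. Lists took each gene's brightest probe set. The genes, lists and tests were chosen with earlier results of these data known. *Mef2d* and *Klf6* were named after their values were seen. Alternatives were pseudocounts of 16 and 100, filters of 0 and 200, 10% trimming, quantile normalization, no scaling, a variance trend, no pairing, a joint fit, single control genotypes and each mouse left out. The fits were tested on simulated data. Promoter windows were searched with Python 3.11.15, and figures drawn with matplotlib 3.10.9.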

Additional observations from a re-analysis of the deposited data

Results flagged for a closer look

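*S1pr1* (161788_f_at) held all 3 values that stood far from the others among 39 sets of 4 control values examined (mock signal, αCD3 signal and their ratio for 13 probe sets). Chance gives about 1 in 20 sets, so a few among 39 were to be looked for by chance alone. They were its mock signal of 191 in *Lck-Cre* replicate 1, and its αCD3 signal of 326 and ratio of 2.02 in *Med23 flox/flox* replicate 1, the mouse whose αCD3 array stood apart. That signal and that ratio rest on the same αCD3 array and are not separate.

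In 4 cases all mice of 1 group moved one way after αCD3 and all mice of the other the opposite way, and none passed limma's test of the difference. Between the control genotypes these were *Klf2* (difference in induction, *Lck-Cre* minus *Med23 flox/flox*, of -2.67), the dim *Itgb7* probe set 162193_f_at (1.38) and *Itgal* (0.19). Between MED23 null and control mice it was *Cxcr4* (-0.43). The share of all probe sets with such opposite moves was not counted, so these cases are a description. *Klf2* and the dim *Itgb7* probe set were below 100 on 10 and 7 of 12 arrays, and each passed the filter through 1 mock condition. For that *Itgb7* probe set 1 floxed ratio was 0.971, and for *Cxcr4* 1 null ratio was 1.00.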

How the results depend on the processing

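No member probe set was called under any alternative but 2, which called *Klf2*, a probe set past the filter through its *Lck-Cre* mock mean alone. The joint fit called *Klf2* in mock cells between MED23 null and *Lck-Cre* and between the control genotypes, 1 member each and 1 call in all each. Without the replicate block, that is without pairing by mouse, *Klf2* was called for the difference in induction between control genotypes (1 member, 1 call in all). Of 733 values of 44 member differences under alternatives, 4 reversed, all for *Itgb7* with its dim probe set 162193_f_at in place of 100906_at (induction in controls 0.12, mock null minus control 0.98, αCD3 null minus control 0.40, mock null minus *Lck-Cre* 1.31). Apart from the *Klf2* change in controls, the 44 were taken because their groups did not overlap or all mice moved one way. Leaving out mice could therefore not turn their sign, and the small number of reversals is no measure of stability. The dim probe set passed the filter through its null mock mean alone, so that mean had to be its highest. The cause of these changes was not tested.

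Counts over all probe sets moved as follows. The 14 calls for induction in controls became 27 with a pseudocount of 100, 33 with a filter of 200, 4 with a variance trend, 42 without the replicate block, 0 with either control genotype alone, and 3 to 9 without 1 mouse. The 3 for induction in null mice became 1 with a pseudocount of 16, no filter, quantile normalization or a variance trend, 0 without the replicate block or with either control genotype alone, and 0 to 1 without 1 mouse. From 0, calls became 1 with a filter of 200, 2 with a variance trend and 2 in the joint fit for mock null minus control, 5 for αCD3 null minus control and 3 for mock null minus *Lck-Cre* with a variance trend.

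Without *Med23 flox/flox* replicate 1, chosen after seeing the data, member probe sets wholly lower after αCD3 in controls went from 2 to 5 (16.1% of all probe sets), and those whose induction lay wholly below or above controls in null mice from 1 and 0 to 2 and 2 (11.3% and 9.89% of all). Of the 5 probe sets most like *Klf2*, *Ccr7* and *S1pr1*, Spearman's measure kept 0, 4 and 0 and mock arrays alone 1, 1 and 0. *S1pr1* with probe set 101953_at could not be fitted, being below the filter. Signals under 100 limit *Klf2* outside the *Lck-Cre* mock arrays.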
